A study of Homo sapiens with 8 samples.

Results

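The genes described here are 9 transcription factors and cofactors of myeloid cell fate: SPI1, which encodes PU.1, GFI1, RUNX1, RUNX2, RUNX3, CBFB, IRF8, MYB and LMO2. They were chosen by symbol for their known roles, with earlier results of these data known, out of 60483 gene identifiers in the count files. All 9 were among the 13982 genes with enough counts to be tested. NB4, the line studied, is an established human acute promyelocytic leukemia line that carries PML/RARα, a fusion of the PML nuclear body protein with retinoic acid receptor α. In every group the endogenous fusion was knocked down with lentivirus and replaced for 72 h by a construct. The groups carried HA-tagged PML/RARα-ΔIDR, HA-tagged PML/RARα-F158E, HA-tagged full-length PML/RARα or an empty vector, and the submitters describe the F158E and ΔIDR mutants as unable to phase separate. Each group had 2 libraries, which makes 8 in all. The comparisons ask how the 9 genes differed with each form of the fusion.

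PU.1 is an ETS family factor that drives monocyte and granulocyte genes, and its dose is known to steer progenitors between fates. GFI1 is a zinc finger repressor that favours granulocytes and is known to oppose PU.1. RUNX1, RUNX2 and RUNX3 share a DNA-binding runt domain and bind DNA as heterodimers with CBFβ, the product of CBFB. IRF8 directs monocyte and dendritic cell development and binds DNA together with PU.1. MYB keeps progenitors proliferating, and LMO2 is a bridging protein that holds the TAL1, LDB1 and GATA factors of early blood cells together. In acute promyelocytic leukemia PML/RARα is known to bind many sites that also hold PU.1 or RUNX1.

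Gene counts summed to between 16779364 and 21965389 in a library. RARA averaged 1358 CPM with ΔIDR, 32.3 CPM with F158E, 77.0 CPM with full-length PML/RARα and 23.1 CPM with empty vector, where CPM are library-size scaled counts with TMM factors. PML averaged 442, 65.9, 124 and 51.9 CPM in the same order. Reads from an endogenous gene, the endogenous fusion and a construct are summed in these values, so the knock-down itself was not measured. The level of a construct and its sequence cannot be told apart in any comparison between constructs. Of 6 markers of promyelocytes and primary granules, MPO averaged at least 3449 CPM in every group, but CST7 averaged 10.3 CPM or less. ELANE, a primary granule gene not on that list, had at most 2 counts in a library. Of 8 erythroid and megakaryocyte markers, 4 had no count in any library. The labels do not state whether replicate libraries stem from separate cultures, and the p-values reflect only spread between replicate libraries, technical or not. edgeR draws the spread of each gene strongly toward that of all genes tested. The prior from all genes had a median of 78.33 degrees of freedom, beside 4 residual degrees of freedom from the libraries.

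By group mean, most of the 9 genes were at their lowest with full-length PML/RARα, and the exceptions were RUNX3 and IRF8. For RUNX2 the full-length and ΔIDR libraries overlapped, with a log2 difference of 0.04 that was not called (edgeR adjusted p = 0.738). The share of all genes tested that were lowest in this group was not counted. Against empty vector, full-length PML/RARα lowered 6 of the 9, namely SPI1, GFI1, RUNX1, CBFB, MYB and LMO2, and raised none. Against full-length PML/RARα, F158E raised these 6 and RUNX2. ΔIDR raised the same 6 against full-length PML/RARα and lowered RUNX3 and IRF8. A gene is called raised or lowered here when its Benjamini-Hochberg adjusted p, over all genes tested with edgeR's quasi-likelihood test, is under 0.05. Without full-length replicate 1, 5 rather than 8 of the 9 were called for ΔIDR over full-length PML/RARα. In a stricter edgeR test against a 1.5-fold change, LMO2 was the only gene of the 9 called for full-length PML/RARα over empty vector and for F158E over full-length PML/RARα, and LMO2 and RUNX3 were called for ΔIDR over full-length PML/RARα.

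These counts stand on a wide background. Between full-length PML/RARα and empty vector, 48.6% of all genes tested were called, 24.4% as lower and 24.2% as higher. Between F158E and full-length PML/RARα, 43.9% were called, 22.2% as higher. Between ΔIDR and full-length PML/RARα, 49.9% were called, 24.9% as higher and 24.9% as lower. The median absolute log2 change of the 9 genes was 0.34 between full-length PML/RARα and empty vector, against 0.36 over all genes tested, so their changes were of ordinary size. Their median signed log2 change in that comparison was -0.32, beside a median of 0.00 over all genes. It was 0.30 for F158E and 0.17 for ΔIDR over full-length PML/RARα, both beside medians of 0.00 over all genes. Because the 9 were chosen with earlier results of these data known, these medians are descriptions only.

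The mutants differed from empty vector in fewer of the 9. F158E raised MYB alone against empty vector, where 8.65% of all genes tested were called and 3.98% were called higher, and the other 8 were not called. ΔIDR raised SPI1 and lowered GFI1, RUNX1 and RUNX3 against empty vector, where 10.3% of all genes were called, 5.06% as higher and 5.23% as lower. ΔIDR differed from F158E in 6 of the 9, with SPI1 higher and GFI1, RUNX1, RUNX2, RUNX3 and MYB lower, where 18.5% of all genes were called, 9.17% as higher and 9.37% as lower. The count was 2 rather than 4 for ΔIDR over empty vector without empty vector replicate 1, and 3 rather than 6 for ΔIDR over F158E without F158E replicate 2. Comparisons that share a group share its libraries, so they are not independent of each other.

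**Figure D1:**
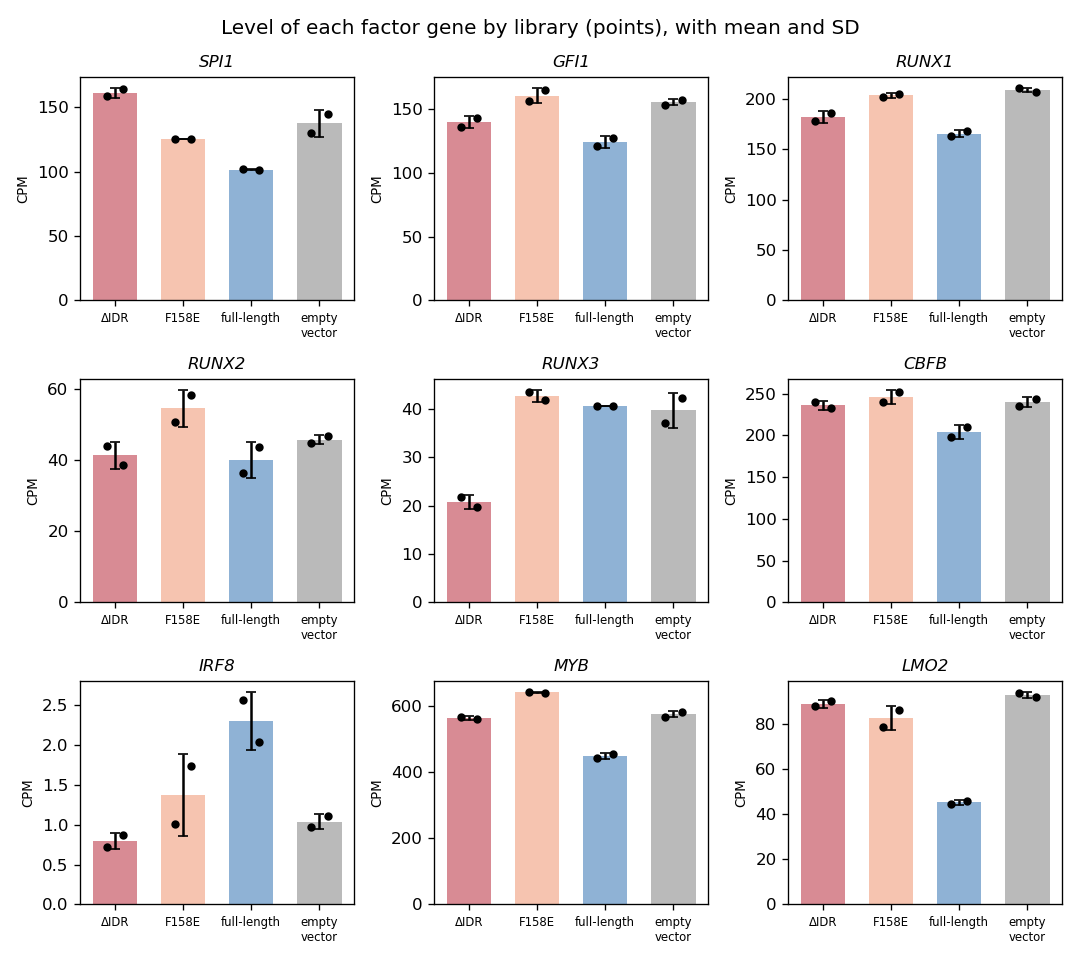
Level of each of the 9 genes in CPM, with 1 point for each library and a bar at the mean of each group of 2 libraries, in panels with separate vertical axes that start at 0. With full-length PML/RARα the points of SPI1, GFI1, RUNX1, CBFB, MYB and LMO2 lie below those of the other 3 groups, while RUNX3 is low with ΔIDR.

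Set per length, as CPM for each kb of annotated exons, MYB was the most abundant of the 9 in empty vector cells at 105 CPM per kb. SPI1 stood at 66.4, CBFB at 58.1, GFI1 at 47.1 and LMO2 at 29.8 CPM per kb there. RUNX1 had 13.4, RUNX3 had 8.78, RUNX2 had 5.60 and IRF8 had 0.201 CPM per kb. The divisor is the union of all annotated exons, which is 15.574 kb for RUNX1, so a gene with long alternative exons is set low on this scale.

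SPI1 (ENSG00000066336.10, chr11:47354860-47378576, minus strand, GRCh38) encodes PU.1. It had 158.4 and 163.9 CPM with ΔIDR, 125.1 and 125.5 CPM with F158E, 101.8 and 101.4 CPM with full-length PML/RARα, and 130.0 and 144.8 CPM with empty vector. No group overlapped another, and the order ran from ΔIDR through empty vector and F158E down to full-length PML/RARα. With 2 libraries in each group such a gap can arise without a called difference. Its share over all genes was not counted. The full-length construct lowered SPI1 by 26.1% against empty vector, a log2 change of -0.44 ± 0.05 (SE, n = 2 libraries in each group; edgeR adjusted p = 2.12e-11). ΔIDR raised it above full-length PML/RARα by a log2 change of 0.67 ± 0.05 (edgeR adjusted p = 7.55e-20), and F158E did so by 0.30 ± 0.05 (edgeR adjusted p = 9.59e-07). ΔIDR also stood above F158E, by 0.36 ± 0.05 on the log2 scale (edgeR adjusted p = 8.42e-09).

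Against empty vector SPI1 was less firmly placed. ΔIDR raised it by a log2 change of 0.23 ± 0.05 (edgeR adjusted p = 4.34e-04), a call that was lost without empty vector replicate 1 (adjusted p = 0.106). F158E had a log2 difference of -0.13 that was not called (edgeR adjusted p = 0.0931), but was called without that same library (adjusted p = 0.0377). Of all genes tested, 43.4% had a larger change than SPI1 between full-length PML/RARα and empty vector.

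GFI1 (ENSG00000162676.10, chr1:92474762-92486876, minus strand) had 137 and 143 CPM with ΔIDR, 156.5 and 165 CPM with F158E, 121 and 128 CPM with full-length PML/RARα, and 154 and 157 CPM with empty vector. F158E and empty vector overlapped, ΔIDR lay below them, and full-length PML/RARα was lowest. The full-length construct lowered GFI1 against empty vector by a log2 change of -0.32 ± 0.05 (edgeR adjusted p = 3.61e-08). F158E raised it over full-length PML/RARα by 0.37 ± 0.05 on the log2 scale (edgeR adjusted p = 5.02e-10). ΔIDR raised it by 0.17 ± 0.05 over full-length PML/RARα (edgeR adjusted p = 0.00269), a call lost without full-length replicate 1 (adjusted p = 0.0526).

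ΔIDR placed GFI1 below F158E, by a log2 change of -0.20 ± 0.05 (edgeR adjusted p = 9.12e-04), and this was lost without F158E replicate 2 (adjusted p = 0.0721). Below empty vector its log2 change was -0.15 ± 0.05 (edgeR adjusted p = 0.0284). That call did not hold with DESeq2 (adjusted p = 0.0732), nor without any 1 of the 4 libraries compared (adjusted p 0.0558 to 0.318).

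With ΔIDR, SPI1 lay above and GFI1 below empty vector when all libraries were fitted, but both calls depended on which libraries were kept. The SPI1 to GFI1 ratio, each in CPM, was 1.16 and 1.14 with ΔIDR, 0.799 and 0.760 with F158E, 0.840 and 0.793 with full-length PML/RARα, and 0.845 and 0.921 with empty vector. Only in the ΔIDR libraries did SPI1 exceed GFI1 in CPM, and the other 3 groups lay close together. CPM are not scaled by gene length, so a ratio of 1 marks no balance point. Per kb of annotated exons, SPI1 averaged above GFI1 in every group. The levels were 77.9 against 42.4 with ΔIDR and 60.6 against 48.7 with F158E. They were 49.1 against 37.7 with full-length PML/RARα and 66.4 against 47.1 with empty vector. An exact permutation test of 2 libraries against 2 cannot give a p below 0.333, and no test of the ratio was made.

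Levels of lineage markers also differed between the groups. The summed level of 8 monocyte markers was 155 to 159 CPM with ΔIDR, 75.0 to 76.6 CPM with F158E, 57.0 to 60.4 CPM with full-length PML/RARα, and 107 to 119 CPM with empty vector. The groups stand in the same order in this sum as in SPI1, but the markers did not all follow it. Of 6 tested, full-length PML/RARα lowered all 6 against empty vector, while ΔIDR raised 2 and lowered 2 against empty vector, with a median log2 change of -0.12. Much of the difference in the sum between these 2 groups lies in S100A9, which averaged 50.5 CPM with ΔIDR and 6.48 CPM with empty vector. CSF1R, for instance, went the other way, at 8.82 CPM with ΔIDR and 12.8 CPM with empty vector. The summed level of 6 promyelocyte and primary granule markers was 11090 CPM in both ΔIDR libraries, 8205 to 8298 CPM with F158E, 5928 to 5953 CPM with full-length PML/RARα, and 8498 to 8633 CPM with empty vector. SRGN and MPO dominate this sum, with averages of 6403 and 4139 CPM with ΔIDR. Full-length PML/RARα lowered 5 of the 6 against empty vector but raised CST7, from 3.73 to 10.3 CPM on average. ΔIDR raised 4 of the 6 against empty vector, and 2 were not called. None of these monocyte and promyelocyte markers was at 0 in every library, and their part in the results was not tested. ΔIDR also had the highest sum of 7 lymphoid markers, 46.8 to 47.9 CPM against 40.0 to 40.4 CPM with empty vector. Its sum of 8 erythroid and megakaryocyte markers was highest too, 15.9 to 17.1 CPM against 10.3 to 10.4 CPM. NKG7 and ITGA2B, at 40.7 and 14.4 CPM with ΔIDR, carried most of these sums. Of 7 epithelial and fibroblast markers, mostly VIM, the sum was 406 to 419 CPM with ΔIDR and 795 to 822 CPM with full-length PML/RARα. In such bulk samples fewer cells of a type and less RNA per cell cannot be told apart.

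Letters of 5 promoter windows follow, to set the 3 RUNX genes side by side and to show GFI1 and MYB, which fell with full-length PML/RARα. Of the 9 genes, 6 had an entry in the RefSeq promoter set of GRCh38.p14, in windows of 250 bases before to 50 bases after a start site. Each line reads 5′ to 3′ along the gene, and capitals mark matches, on either strand, to the motifs searched. The motifs were TGTGGT for RUNX, GAGGAA for PU.1, CAACNG for MYB, AAATCA for GFI1, TTGCNNAA for C/EBP and AGGTCA for a retinoid receptor half-site.
GFI1 (chr1:92486050-92486349, minus strand): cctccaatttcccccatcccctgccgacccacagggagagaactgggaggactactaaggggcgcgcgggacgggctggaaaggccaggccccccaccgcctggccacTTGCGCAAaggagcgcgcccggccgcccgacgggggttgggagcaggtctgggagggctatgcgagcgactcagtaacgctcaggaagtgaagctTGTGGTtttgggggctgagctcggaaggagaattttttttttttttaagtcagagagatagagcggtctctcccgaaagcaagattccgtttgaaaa
RUNX1 (chr21:34888650-34888949, minus strand): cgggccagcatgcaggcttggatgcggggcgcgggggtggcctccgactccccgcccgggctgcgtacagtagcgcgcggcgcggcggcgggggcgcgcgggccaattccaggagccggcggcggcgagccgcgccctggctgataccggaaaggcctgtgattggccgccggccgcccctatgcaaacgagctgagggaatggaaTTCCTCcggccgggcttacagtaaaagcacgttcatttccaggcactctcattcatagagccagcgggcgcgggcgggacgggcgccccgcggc
RUNX2 (chr6:45328080-45328379, plus strand): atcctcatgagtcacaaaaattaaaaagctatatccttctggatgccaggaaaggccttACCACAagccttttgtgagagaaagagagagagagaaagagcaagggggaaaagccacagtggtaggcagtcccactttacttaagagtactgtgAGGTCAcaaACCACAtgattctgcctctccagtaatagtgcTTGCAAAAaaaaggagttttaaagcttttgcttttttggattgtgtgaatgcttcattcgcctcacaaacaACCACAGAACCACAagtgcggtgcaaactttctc
RUNX3 (chr1:24964961-24965260, minus strand): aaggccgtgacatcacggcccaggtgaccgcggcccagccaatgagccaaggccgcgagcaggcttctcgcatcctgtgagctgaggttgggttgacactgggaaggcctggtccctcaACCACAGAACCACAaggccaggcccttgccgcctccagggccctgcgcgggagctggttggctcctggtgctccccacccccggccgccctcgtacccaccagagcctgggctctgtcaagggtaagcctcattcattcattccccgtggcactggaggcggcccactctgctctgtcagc
MYB (chr6:135181058-135181357, plus strand): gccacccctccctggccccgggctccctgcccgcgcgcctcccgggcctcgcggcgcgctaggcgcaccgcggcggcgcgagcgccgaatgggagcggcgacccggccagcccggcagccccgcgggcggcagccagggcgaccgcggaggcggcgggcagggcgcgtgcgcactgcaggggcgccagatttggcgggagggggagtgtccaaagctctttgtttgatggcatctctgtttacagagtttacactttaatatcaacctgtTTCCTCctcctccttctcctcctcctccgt

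The GFI1 window held a palindromic C/EBP match that begins at position -142 and a RUNX match at -47, counted from the start site. The RUNX1 window held a PU.1 match at -44, and the MYB window a PU.1 match at 21. The RUNX2 window held RUNX matches at -191, -87, 17 and 25, a half-site at -96 and a C/EBP match at -55, and the RUNX3 window held RUNX matches at -131 and -123. The windows were chosen after their matches were seen, and other start sites of these genes had other matches. Of the unprinted windows, those of GFI1 held a half-site match in one and a PU.1 match in the other, that of RUNX2 a MYB match, and that of RUNX3 a PU.1 and a MYB match but no RUNX match. Both IRF8 windows held a half-site match, and one of them also a RUNX and a MYB match. Of 34796 promoter windows of this length, 13.1% held a RUNX match, 27.9% a PU.1 match, 10.5% a C/EBP match, 13.8% a half-site, 32.9% a MYB match and 13.2% a GFI1 match.

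In RUNX2 and RUNX3 adjoining RUNX matches formed the same 14 letters, ACCACAGAACCACA, which is a repeat of the motif on the minus strand with a spacer of GA. A pair of RUNX motifs with any 2 letters between them was searched for after these sequences had been seen. It was found in 4 of the 34796 windows (0.0115%), those of RUNX3, RUNX2, OR52N2 and LOC105369321. The RUNX2 and RUNX3 windows with the pair lie at the annotated 5′ ends of these genes. The RUNX1 window, chr21:34888650-34888949, lies inside the gene, far from its annotated 5′ end at 36004667. No window at that end was listed for RUNX1, so whether a pair lies there was not tested. A match describes letters and is not evidence of binding, and RUNX2 and RUNX3 differed in how they responded to ΔIDR, as follows.

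RUNX1 (ENSG00000159216.17, chr21:34787801-36004667, minus strand), the RUNX factor most needed for the first blood stem cells, had 178 and 186 CPM with ΔIDR, 202 and 205 CPM with F158E, 163 and 168 CPM with full-length PML/RARα, and 210.5 and 207 CPM with empty vector. No group overlapped another, although F158E and empty vector were not called different. The full-length construct lowered RUNX1 against empty vector by a log2 change of -0.34 ± 0.04 (edgeR adjusted p = 1.58e-10), and F158E raised it over full-length PML/RARα by 0.30 ± 0.04 (edgeR adjusted p = 6.66e-09). ΔIDR lay between them, at -0.20 ± 0.04 below empty vector on the log2 scale (edgeR adjusted p = 2.96e-04).

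The smaller RUNX1 differences depended on which libraries were kept. ΔIDR exceeded full-length PML/RARα by a log2 change of 0.14 ± 0.04 (edgeR adjusted p = 0.00584), lost without full-length replicate 1 (adjusted p = 0.0569) or ΔIDR replicate 2 (adjusted p = 0.0855). ΔIDR was below F158E by a log2 change of -0.16 ± 0.04 (edgeR adjusted p = 0.00259), lost without F158E replicate 2 (adjusted p = 0.0587) or ΔIDR replicate 1 (adjusted p = 0.0937). F158E and empty vector had a log2 difference of -0.04 that was not called (edgeR adjusted p = 0.689).

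RUNX3 (ENSG00000020633.17, chr1:24899511-24965121, minus strand), known for its part in T cell and dendritic cell development, had a pattern unlike the other RUNX genes. It had 21.7 and 19.7 CPM with ΔIDR, 43.6 and 41.8 CPM with F158E, 40.5 and 40.5 CPM with full-length PML/RARα, and 37.2 and 42.2 CPM with empty vector. The ΔIDR libraries stood far below all 6 others, which spanned 37.2 to 43.6 CPM. ΔIDR lowered RUNX3 by 51.6% against F158E, a log2 change of -1.05 ± 0.10 (edgeR adjusted p = 1.69e-14). The log2 change was -0.97 ± 0.10 against full-length PML/RARα (edgeR adjusted p = 1.30e-13) and -0.94 ± 0.10 against empty vector (edgeR adjusted p = 4.07e-12).

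No difference in RUNX3 was called among the other 3 groups. Between full-length PML/RARα and empty vector the log2 difference was 0.03, with a 95% interval of -0.16 to 0.22 (edgeR adjusted p = 0.828). Of all genes tested, 6.72% changed more than RUNX3 between ΔIDR and F158E.

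RUNX2 (ENSG00000124813.19, chr6:45328157-45664349, plus strand), the RUNX factor of bone formation, had 44.0 and 38.8 CPM with ΔIDR, 50.9 and 58.3 CPM with F158E, 36.6 and 43.6 CPM with full-length PML/RARα, and 44.9 and 46.8 CPM with empty vector. ΔIDR and full-length PML/RARα overlapped, and both F158E libraries were above all others. F158E raised RUNX2 over full-length PML/RARα by a log2 change of 0.45 ± 0.09 (edgeR adjusted p = 2.05e-05). ΔIDR was below F158E by a log2 change of -0.40 ± 0.09 (edgeR adjusted p = 2.79e-04), a call that was lost without F158E replicate 2 (adjusted p = 0.0517).

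Other RUNX2 differences were not called with edgeR. The log2 difference was 0.25 ± 0.09 for F158E over empty vector (edgeR adjusted p = 0.0596), though 8 alternative settings called it (adjusted p 0.0244 to 0.0497). It was -0.19 ± 0.09 for full-length PML/RARα over empty vector (edgeR adjusted p = 0.0741), called without full-length replicate 2 (adjusted p = 0.0140). SUPT3H overlaps RUNX2 on the opposite strand, with 108 to 214 counts in a library, and the library kit does not mark strand, but the genes share 0 exon bases.

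CBFB (ENSG00000067955.12, chr16:67029116-67101058, plus strand), the shared partner of the RUNX proteins, had 239.7 and 232 CPM with ΔIDR, 241 and 252 CPM with F158E, 198 and 210.1 CPM with full-length PML/RARα, and 235 and 244 CPM with empty vector. The full-length libraries lay below the other 6. Empty vector overlapped both ΔIDR and F158E, while ΔIDR lay just below F158E without overlap. The full-length construct lowered CBFB against empty vector by a log2 change of -0.23 ± 0.04 (edgeR adjusted p = 7.47e-07). Over full-length PML/RARα, F158E raised it by 0.27 ± 0.04 (edgeR adjusted p = 1.24e-08) and ΔIDR by 0.21 ± 0.04 (edgeR adjusted p = 6.62e-06) on the log2 scale. ΔIDR and empty vector had a log2 difference of -0.02, with a 95% interval of -0.10 to 0.05 (edgeR adjusted p = 0.829).

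The makeup of the RUNX family shifted with ΔIDR. Of the summed RUNX1, RUNX2 and RUNX3 level in CPM per kb, RUNX3 made up 22.2% and 20.7% with ΔIDR, 33.5% and 31.3% with F158E, 37.5% and 35.7% with full-length PML/RARα, and 30.2% and 32.9% with empty vector. RUNX1 made up 52.9% and 56.8% with ΔIDR, and 43.1% to 49.7% in the 6 other libraries. The level of CBFB over the summed RUNX level, both per kb, was 2.69 and 2.68 with ΔIDR, 2.02 and 2.07 with F158E, 2.01 and 2.03 with full-length PML/RARα, and 2.10 and 2.08 with empty vector. These shares are descriptions without a test.

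**Figure D2:**
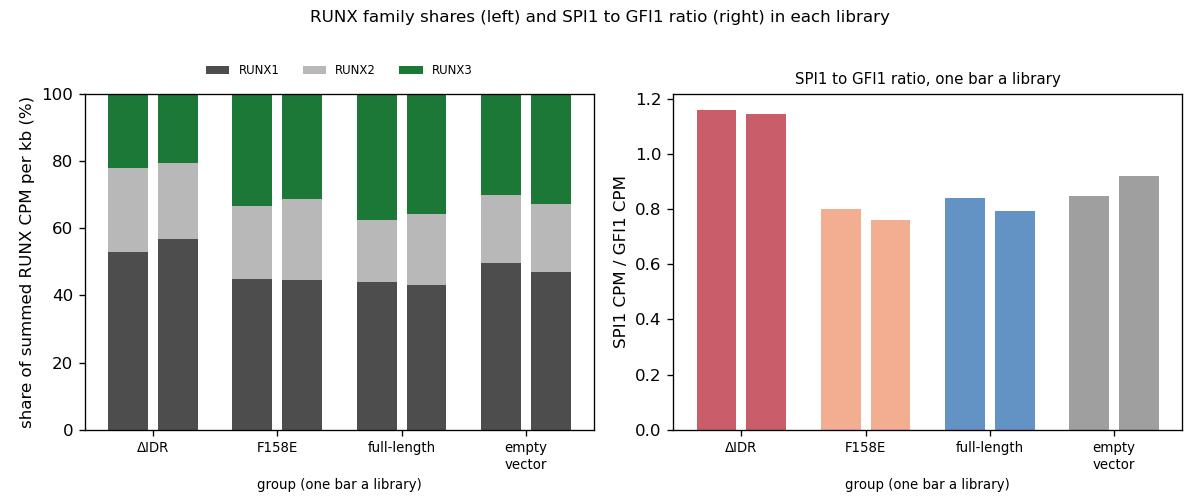
Left, the percentage of the summed RUNX level, in CPM per kb of annotated exons, that each RUNX gene made up, with 1 stacked bar for each library. Right, the SPI1 to GFI1 ratio of CPM in each library. The ΔIDR libraries have the smallest RUNX3 share, 22.2% and 20.7%, and the only ratios above 1, at 1.16 and 1.14. The ratio is not scaled by gene length, and per kb SPI1 averaged above GFI1 in every group.

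MYB (ENSG00000118513.17, chr6:135181315-135219173, plus strand) had 568 and 560.1 CPM with ΔIDR, 642.3 and 639.8 CPM with F158E, 442 and 455 CPM with full-length PML/RARα, and 568 and 582 CPM with empty vector. F158E was the highest group, ΔIDR and empty vector lay next to each other, and full-length PML/RARα was lowest. The full-length construct lowered MYB by a log2 change of -0.36 ± 0.03 against empty vector (edgeR adjusted p = 6.66e-20). F158E raised it over full-length PML/RARα by 0.52 ± 0.03 (edgeR adjusted p = 3.95e-29), and ΔIDR by 0.33 ± 0.03 (edgeR adjusted p = 4.57e-18).

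MYB was the only member called between F158E and empty vector, by a log2 change of 0.16 ± 0.03 (edgeR adjusted p = 1.22e-05). ΔIDR was below F158E by a log2 change of -0.19 ± 0.03 (edgeR adjusted p = 5.65e-08), and its difference of -0.03 from empty vector was not called (edgeR adjusted p = 0.629). The antisense gene MYB-AS1 shares 103 exon bases with MYB, 1.88% of its exons, and had 0 to 14 counts in a library.

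LMO2 (ENSG00000135363.10, chr11:33858576-33892289, minus strand) changed most among the 6 genes called between full-length PML/RARα and empty vector. It had 87.7 and 90.2 CPM with ΔIDR, 78.7 and 86.1 CPM with F158E, 44.4 and 45.9 CPM with full-length PML/RARα, and 93.7 and 91.7 CPM with empty vector. The full-length libraries stood far below the 6 others. LMO2 was 51.3% lower with full-length PML/RARα than with empty vector, a log2 change of -1.04 ± 0.07 (edgeR adjusted p = 1.36e-23), and 14.1% of all genes tested changed more. ΔIDR raised it over full-length PML/RARα by 0.98 ± 0.07 (edgeR adjusted p = 3.62e-22) and F158E by 0.87 ± 0.07 (edgeR adjusted p = 3.14e-19). No difference among ΔIDR, F158E and empty vector was called for LMO2, with edgeR adjusted p of 0.0889 to 0.691.

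IRF8 (ENSG00000140968.9, chr16:85898803-85922609, plus strand) had few counts. There were 12 and 19 counts with ΔIDR, 22 and 38 counts with F158E, 45 and 35 counts with full-length PML/RARα, and 18 and 21 counts with empty vector. In CPM these were 0.724 and 0.870 with ΔIDR, 1.00 and 1.74 with F158E, 2.56 and 2.04 with full-length PML/RARα, and 0.971 and 1.11 with empty vector. The full-length libraries were the highest, whereas SPI1, GFI1, RUNX1, CBFB, MYB and LMO2 were lowest in them. Counting error was wide here, with an exact 95% Poisson interval of 1.42 to 2.84 CPM in full-length replicate 2 and of 0.686 to 1.69 CPM in empty vector replicate 2.

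The only IRF8 difference called was the lower level with ΔIDR than with full-length PML/RARα, a log2 change of -1.51 ± 0.54 (edgeR adjusted p = 0.0138). It was lost without full-length replicate 1 (adjusted p = 0.10) or ΔIDR replicate 1 (adjusted p = 0.0767). The log2 difference of 1.14 ± 0.52 between full-length PML/RARα and empty vector was not called (edgeR adjusted p = 0.0629), and it was called when only these groups were fitted (adjusted p = 0.0403).

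**Figure D3:**
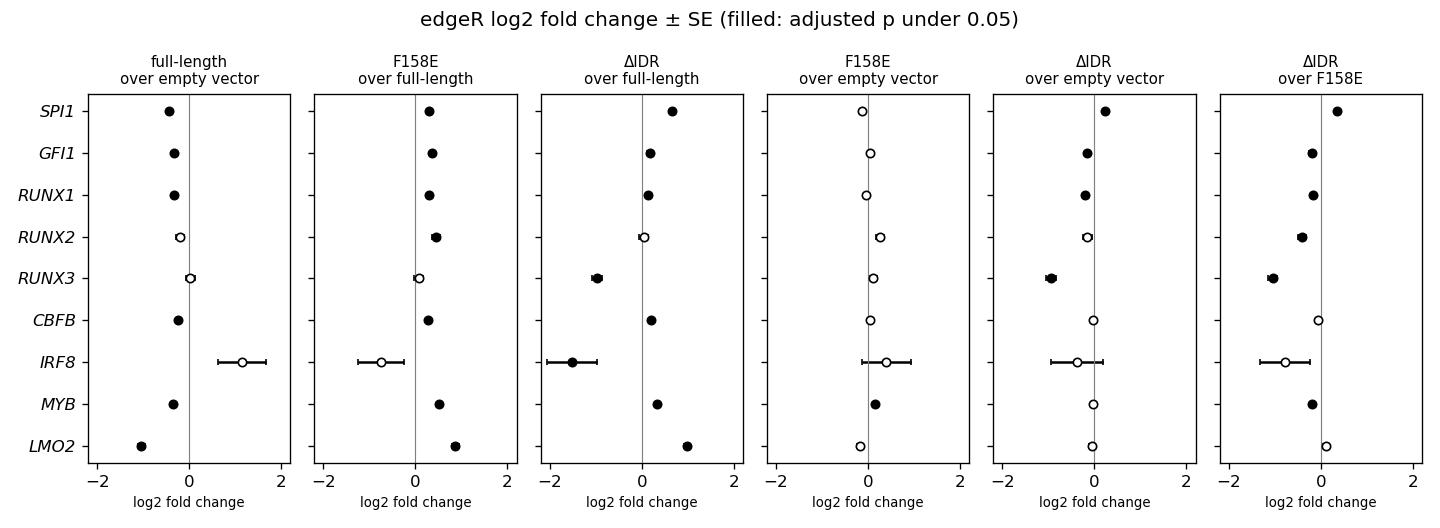
Log2 fold change of each of the 9 genes in each of the 6 comparisons, with bars of 1 SE, from edgeR with 2 libraries in each group; filled points are called at an adjusted p under 0.05. Full-length PML/RARα over empty vector reaches -1.04 for LMO2, and ΔIDR over F158E reaches -1.05 for RUNX3, while the wide bars belong to IRF8.

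Lists of relatives, partners and known targets, chosen with earlier results of these data known, were read from the same fit. For full-length PML/RARα over empty vector, 24.4% of all genes tested were called lower and 24.2% higher. For F158E over full-length PML/RARα the shares were 22.2% higher and 21.8% lower. They were 24.9% in each direction for ΔIDR over full-length PML/RARα, and 9.17% higher and 9.37% lower for ΔIDR over F158E. Of 10 ETS family relatives of PU.1 tested, full-length PML/RARα lowered 6 and raised none against empty vector, with a median log2 change of -0.22. ELF4, an ETS activator, averaged 179 CPM with ΔIDR, 125 CPM with F158E, 85.7 CPM with full-length PML/RARα and 149 CPM with empty vector. Its log2 change was -0.80 ± 0.05 for full-length PML/RARα over empty vector (edgeR adjusted p = 1.91e-23). ETV3, an ETS repressor, fell by a log2 change of -0.81 ± 0.09 and FLI1 by -0.31 ± 0.06 in that comparison. F158E raised 8 of the 10 over full-length PML/RARα, and ΔIDR raised 4.

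Of 22 PU.1 target genes tested, full-length PML/RARα lowered 13 and raised 3 against empty vector, with a median log2 change of -0.46 beside 0.00 over all genes. CYBB, the catalytic subunit of the phagocyte oxidase, averaged 629 CPM with ΔIDR, 294 CPM with F158E, 281 CPM with full-length PML/RARα and 438 CPM with empty vector. NCF1, a cytosolic oxidase subunit with near-identical copies in the genome, so that its counts are uncertain, averaged 181 CPM with ΔIDR, 23.7 CPM with F158E, 6.30 CPM with full-length PML/RARα and 56.1 CPM with empty vector. FCGR1A, a high-affinity IgG receptor, fell by a log2 change of -1.26 ± 0.10 with full-length PML/RARα against empty vector, and BTK, a cytoplasmic tyrosine kinase, rose by 0.46 ± 0.04. ΔIDR raised 13 and lowered 3 of the 22 against full-length PML/RARα.

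Between the mutants and empty vector the PU.1 targets split. F158E lowered 10 and raised 1 of the 22 against empty vector, where 4.67% of all genes were called lower, with a median log2 change of -0.20. ΔIDR raised 8 and lowered 2 against empty vector, where 5.06% of all genes were called higher, with a median of 0.06. ΔIDR raised 11 and lowered 1 against F158E. Some monocyte markers, such as CSF1R and CD14, are also on this list.

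Of 15 relatives and corepressors of GFI1 tested, full-length PML/RARα raised 7 and lowered 3 against empty vector, with a median log2 change of 0.02. HDAC2, a histone deacetylase, rose by 0.45 ± 0.04, EHMT2, a histone H3 lysine methyltransferase, by 0.76 ± 0.08, and KDM1A, a histone demethylase, by 0.37 ± 0.04. RCOR1, the scaffold that joins KDM1A to the deacetylases, fell by a log2 change of -0.37 ± 0.05. Of 11 GFI1-repressed genes tested, of 15 listed, 3 fell and 1 rose in that comparison, where 24.4% of all genes were called lower. CSF1R, the M-CSF receptor, averaged 8.82 CPM with ΔIDR, 9.46 CPM with F158E, 4.87 CPM with full-length PML/RARα and 12.8 CPM with empty vector. EGR2, a monocyte-associated zinc finger factor, fell by a log2 change of -2.25 ± 0.38 and BAX, a cell death effector, by -0.40 ± 0.08, while MEIS1, a homeobox factor at 1.09 CPM or less on average in every group, rose by 2.32 ± 0.92.

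Of 12 RUNX corepressors and partners tested, 5 rose and 3 fell with full-length PML/RARα against empty vector. The shares over all genes tested were 24.2% higher and 24.4% lower. TLE5, a Groucho family member, rose by a log2 change of 0.57 ± 0.07 and SIN3A, a corepressor scaffold, by 0.40 ± 0.04. KMT2A, a histone methyltransferase, rose by 0.14 ± 0.04, while PRMT1, an arginine methyltransferase, fell by a log2 change of -0.34 ± 0.03. Of 13 RUNX target genes tested, 9 fell and 1 rose, with a median log2 change of -0.32; SPI1 and GFI1 are themselves on this list. MPO, the myeloperoxidase gene, averaged 4139 CPM with ΔIDR, 4052 CPM with F158E, 3449 CPM with full-length PML/RARα and 3799 CPM with empty vector. CCL3, a chemokine gene, had a log2 change of -4.51 ± 0.42 and averaged 0.291 CPM with full-length PML/RARα, against 6.71 CPM with empty vector. CD4 fell by a log2 change of -0.31 ± 0.04, and CSF3R, the G-CSF receptor gene, rose by 1.09 ± 0.14.

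Against full-length PML/RARα, ΔIDR raised 8 and lowered 2 of the 13 RUNX targets, and F158E raised 9 and lowered 3. ΔIDR raised 4 and lowered 3 of them against F158E, with a median log2 change of 0.03. RUNX3 itself was 51.6% lower in that comparison.

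Of 11 MYB relatives and coactivators tested, 6 rose and 2 fell with full-length PML/RARα against empty vector, with a median log2 change of 0.38. CREBBP, the coactivator acetyltransferase that binds MYB, averaged 50.2 CPM with ΔIDR, 65.4 CPM with F158E, 108 CPM with full-length PML/RARα and 50.2 CPM with empty vector. Its log2 change was 1.10 ± 0.08 for full-length PML/RARα over empty vector (edgeR adjusted p = 5.25e-23). MYBL2, a cell cycle relative of MYB, rose by 0.39 ± 0.04, PSIP1, a chromatin reader, by 0.38 ± 0.03, and KAT5, an acetyltransferase, fell by a log2 change of -0.48 ± 0.08. MYB itself fell in this comparison, opposite to the median of its relatives and coactivators.

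Of 16 MYB target genes tested, 10 fell and 3 rose with full-length PML/RARα against empty vector, with a median log2 change of -0.25; LMO2 is on this list. HSPA5, an abundant endoplasmic reticulum chaperone, averaged 2865 CPM with ΔIDR, 2304 CPM with F158E, 979 CPM with full-length PML/RARα and 2496 CPM with empty vector. TFRC, the transferrin receptor, fell by a log2 change of -0.70 ± 0.02, and MYC rose by 0.34 ± 0.03. F158E raised 10 and lowered 2 of the 16 over full-length PML/RARα, with a median of 0.39.

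The list of LMO2 complex partners and relatives was split. Of the 12 tested, out of 19 listed, 5 rose and 4 fell with full-length PML/RARα against empty vector, where LMO2 fell. TAL1, with at most 12 counts in a library, was not tested. LDB1, which dimerizes the complex, rose by a log2 change of 0.56 ± 0.07, TCF3, an E protein, by 0.65 ± 0.07 and SSBP2, which stabilizes LDB1, by 1.44 ± 0.14. GATA2, the GATA factor of progenitors and also on the MYB list, averaged 261 CPM with ΔIDR, 222 CPM with F158E, 86.1 CPM with full-length PML/RARα and 200.5 CPM with empty vector, a log2 change of -1.22 ± 0.05 for full-length PML/RARα over empty vector (edgeR adjusted p = 9.05e-40).

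With full-length PML/RARα against empty vector, 24.4% of all genes were called lower. Among 9 tested genes of the IRF family and its partners, 3 fell and none rose in that comparison. They were IRF1, an interferon-induced activator, at -1.15 ± 0.12 on the log2 scale, IRF9, the DNA-binding subunit of ISGF3, at -1.63 ± 0.43, and IRF2BP2, an IRF2 corepressor that is not itself an IRF, at -0.50 ± 0.05. Of 17 IRF8 target genes tested, 7 fell and 2 rose, with a median log2 change of -0.37. IFIT2, an interferon-induced gene, averaged 59.9 CPM with ΔIDR, 30.9 CPM with F158E, 6.13 CPM with full-length PML/RARα and 29.2 CPM with empty vector. B2M fell by a log2 change of -0.42 ± 0.02, and PML, which rose by 1.26 ± 0.05, is part of the constructs. ΔIDR raised 10 of the 17 over full-length PML/RARα and lowered 2, although IRF8 itself was called lower there.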

How the data were processed

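RNA was measured in 8 NB4 libraries, 2 for each of 4 groups named by the labels. The authors deposited raw counts for each gene, without normalization, on human build GRCh38 per the submitters' processing notes, and the aligner and counter are not given in the sources used here. The library kit, per the labels' protocols, does not mark strand, and 87.9% to 88.7% of recorded reads were assigned to genes. Lines of unassigned reads were left out.

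All 8 libraries were fitted together with edgeR 4.0.16 in R 4.3.3, using its quasi-likelihood test, TMM factors and the filterByExpr rule, which left 13982 genes. P-values were adjusted by Benjamini-Hochberg over all of these in each of 6 comparisons and called under 0.05. Levels are CPM, and SE is the absolute log2 change over the square root of F. Alternatives were other scalings, no count filter, DESeq2 1.42.0, a test against a 1.5-fold change, fits of only the groups compared, a replicate block and leaving out each library. The libraries of each group differed by more than counting noise.

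Gene positions and exon lengths came from GENCODE release 29, and promoter sequences from RefSeq. The 9 members, the lists and the motifs were chosen with earlier results of these data known. Between full-length PML/RARα and empty vector, the called genes of each list were ranked by adjusted p, and the text names at most the top 3 in the commoner direction and the top 1 in the other. ELANE and TAL1 are named outside this rule, for their low counts.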

Additional observations from a re-analysis of the deposited data

How the results depend on the processing

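Across the alternatives listed, counts of called genes and members stayed within 1.5 times of the reported count, apart from the following. Tested against a 1.5-fold change with edgeR, 1328 genes and 1 member were called for full-length PML/RARα over empty vector, where the test against no change called 6794 and 6. The numbers were 933 and 1 for F158E over full-length PML/RARα, 1611 and 2 for ΔIDR over full-length PML/RARα, 24 and 0 for F158E over empty vector, 110 and 1 for ΔIDR over empty vector, and 222 and 1 for ΔIDR over F158E. This test asks for a larger change by construction. The 0 members there compare with 1 member called by edgeR against no change and 1 by DESeq2. For F158E over empty vector, where the reported count was 1, 2 members were called with upper-quartile scaling, without a count filter or with only the groups compared.

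Leaving out a library in turn gave 6 to 7 members for full-length PML/RARα over empty vector, 7 for F158E over full-length PML/RARα, 5 to 8 for ΔIDR over full-length PML/RARα, 1 to 2 for F158E over empty vector, 2 to 4 for ΔIDR over empty vector and 3 to 6 for ΔIDR over F158E. The genes called ran from 5669 to 6887, 5047 to 6209, 5992 to 7003, 638 to 1272, 884 to 1485 and 1813 to 2602 in these comparisons. For ΔIDR, the 5 members over full-length PML/RARα came without full-length replicate 1, the 2 members over empty vector without empty vector replicate 1, and the 3 members over F158E without F158E replicate 2. For ΔIDR over empty vector, the genes called were 944 and 884 without empty vector replicates 1 and 2 in turn, against 1439. For F158E over empty vector, 2 members were called without empty vector replicate 1, F158E replicate 1 or any 1 of the full-length and ΔIDR libraries. The genes called there were 638 and 675 without empty vector replicates 1 and 2 in turn, and 778 and 764 without F158E replicates 1 and 2 in turn. Only members that had not been called changed sign. The log2 difference of RUNX3 for full-length PML/RARα over empty vector ran from -0.060 to 0.12, and that of RUNX2 for ΔIDR over full-length PML/RARα from -0.070 to 0.18. IRF8 for F158E over empty vector ran from -0.048 to 0.74, and CBFB for ΔIDR over empty vector from -0.039 to 0.012. The cause was not tested.

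Same-numbered replicates did not deviate together, with correlations of -0.0106 to 0.043, so the numbers do not pair the samples. A replicate block changed 0 of 54 member calls by edgeR, and 6778 genes were called for full-length PML/RARα over empty vector with it. The 12 to 45 counts of IRF8 in a library limit what can be said of it.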

Other observations

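The genes whose log2 CPM followed each factor most closely over the 8 libraries were read among protein-coding genes that averaged 3 log2 CPM or more. The points share libraries and depth, and 4 group means carry most of the spread, so the Pearson correlations are descriptions only. EVI2B, a membrane protein gene of myeloid cells, was nearest to SPI1 at a correlation of 0.997, with 137 CPM with ΔIDR, 106 CPM with F158E, 88.5 CPM with full-length PML/RARα and 116 CPM with empty vector. TLE4, a Groucho corepressor, and CSF2RB, the shared β chain of the GM-CSF and IL-3 receptors, came next.

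HDC, the histidine decarboxylase gene that makes histamine, was nearest to MYB at 0.997. It averaged 388 CPM with ΔIDR, 549 CPM with F158E, 212 CPM with full-length PML/RARα and 430.3 CPM with empty vector. CCNB2 and PLK1, both mitotic genes, were among the 3 nearest to RUNX1, at 0.9935 and 0.9835. N4BP2L1 was nearest to RUNX3 at 0.989, with 12.2 CPM with ΔIDR, 28.9 CPM with F158E, 25.0 CPM with full-length PML/RARα and 25.1 CPM with empty vector.

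The number of genes with a correlation over 0.95 was 732 for LMO2, 160 for SPI1, 110 for CBFB, 95 for MYB, 63 for RUNX1, 36 for GFI1, 17 for RUNX3 and 2 for RUNX2. GOLGA4, a Golgi tethering protein gene, was nearest to LMO2 at 0.999 and TUBD1, a δ-tubulin gene, to GFI1 at 0.988. HMGB1, a chromatin protein gene, was nearest to CBFB at 0.995. IRF8 was nearest to DTWD1 at 0.980, on 12 to 45 counts of IRF8 in a library.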
